A study of Mus musculus with 6 samples.

Results

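The class A and class B scavenger receptors examined here were Msr1, Marco, Colec12 and Scara3 of class A and Cd36, Scarb1 and Scarb2 of class B, together with Olr1, a lectin-like receptor that current nomenclature puts in class E. These 8 genes were taken by symbol from a table of 56691 genes, and all 8 had counts high enough to be tested. The cells were labelled as Kupffer cells, which are macrophages resident in liver sinusoids, from Vil1Cre-Myd88fl/fl mice. In these mice the Cre recombinase is driven in intestinal epithelium and removes Myd88 there, so the mice of both groups carry an intestinal deletion and the liver macrophages are not its target. The groups were 3 untreated libraries, whose names begin with KO, and 3 libraries treated with 5-HT (serotonin), whose names begin with 5-HT. The labels give the same genotype to all 6 and do not explain the name KO, so a further difference between the groups, beside 5-HT, cannot be told apart from the treatment. The sources used here do not give strain, age, dose, route, duration, the number of animals per library or whether mice or isolated cells were treated. Nothing says that the libraries came from separate animals, so the p-values cover only library-to-library spread, which may be technical.

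Scavenger receptors are membrane proteins of macrophages and endothelium that bind many unlike ligands, among them oxidised or acetylated lipoproteins, bacterial surface molecules, apoptotic cells and synthetic particles. Class A members are type II membrane proteins that assemble as trimers on a collagen-like stalk. Class B members cross the membrane near both ends and carry a large extracellular loop with a lipid tunnel. In the liver, Kupffer cells and sinusoidal endothelial cells use such receptors to clear particles and waste from blood.

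The annotation in the deposited table gives the term collagen trimer to 4 of the 8 genes, Msr1, Marco, Colec12 and Scara3. It places 6 of them in the phagosome pathway, with Scarb2 and Scara3 left out, and Scarb2 alone in the lysosome pathway. Positions are those of GENCODE M21 on GRCm38. Cd36 (ENSMUSG00000002944, 17781690 to 17888801), Scarb1 (ENSMUSG00000037936, 125277087 to 125341094) and Scarb2 (ENSMUSG00000029426, 92441314 to 92506833) lie on chromosome 5, all on the minus strand. Msr1 (ENSMUSG00000025044) lies on chromosome 8 from 39581685 to 39642673, and Marco (ENSMUSG00000026390) on chromosome 1 from 120474538 to 120505024, both on the minus strand. Olr1 (ENSMUSG00000030162) lies on chromosome 6 from 129485244 to 129507165 and Scara3 (ENSMUSG00000034463) on chromosome 14 from 65919394 to 65953935, on the minus strand as well. Colec12 (ENSMUSG00000036103), on chromosome 18 from 9707595 to 9882644, is the only member on the plus strand. None of the 8 shares exonic bases with another annotated gene.

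Total counts ran from 15390956 to 19050039 per library. The Kupffer cell label was met by Clec4f, a lectin specific to these cells, at 149.9 to 311 FPKM (a gene's count divided by its exonic length and by the library's total count) and Vsig4 at 72.8 to 141.5 FPKM, both defining markers. Markers of sinusoidal endothelial cells were also abundant: their 14 genes summed to 5167 to 5317 in untreated and 3878 to 5324 FPKM in treated libraries, against 1179 to 1644 and 1743 to 2119 FPKM for the 16 Kupffer cell genes. Myd88 itself was read in every library at 14.4 to 30.1 FPKM, which is no check of a deletion made in the intestine. The untreated and treated libraries numbered 2 stood apart in genes of bile duct epithelium, with values given beside Scara3. Bile duct genes were not alone in this. All monocyte markers but Ms4a4c, Fn1, Treml4 and Lyz2 were also highest of their group in both libraries numbered 2. The same held for all dendritic cell markers but Zbtb46, Ccr7 and Clec9a. Ccr2, a monocyte marker, had 12.1, 27.2 and 13.2 FPKM in untreated and 26.97, 38.6 and 17.25 FPKM in treated replicates 1 to 3. In such bulk RNA, fewer cells of a type and less RNA per cell cannot be told apart.

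Olr1 and Marco rose with 5-HT, and the other 6 receptors did not pass. Counted over all 8, where 7.74% of the 16641 tested genes passed in either direction, 2 were higher and none lower by edgeR's quasi-likelihood test at an adjusted p under 0.05, against 4.55% of tested genes higher and 3.19% lower. By unadjusted p under 0.05 the same 2 members passed, as did 24.2% of all tested genes, and DESeq2 also called 2 higher and 0 lower. The median log2 change of the 8 was -0.01, against -0.02 over all tested genes. The groups did not overlap in FPKM for 2 of the 8, both higher, against 29.6% of all tested genes and 15.4% with the treated group higher. The members were chosen with earlier results of these data known, so these shares describe the set and test nothing about it.

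**Figure D1:**
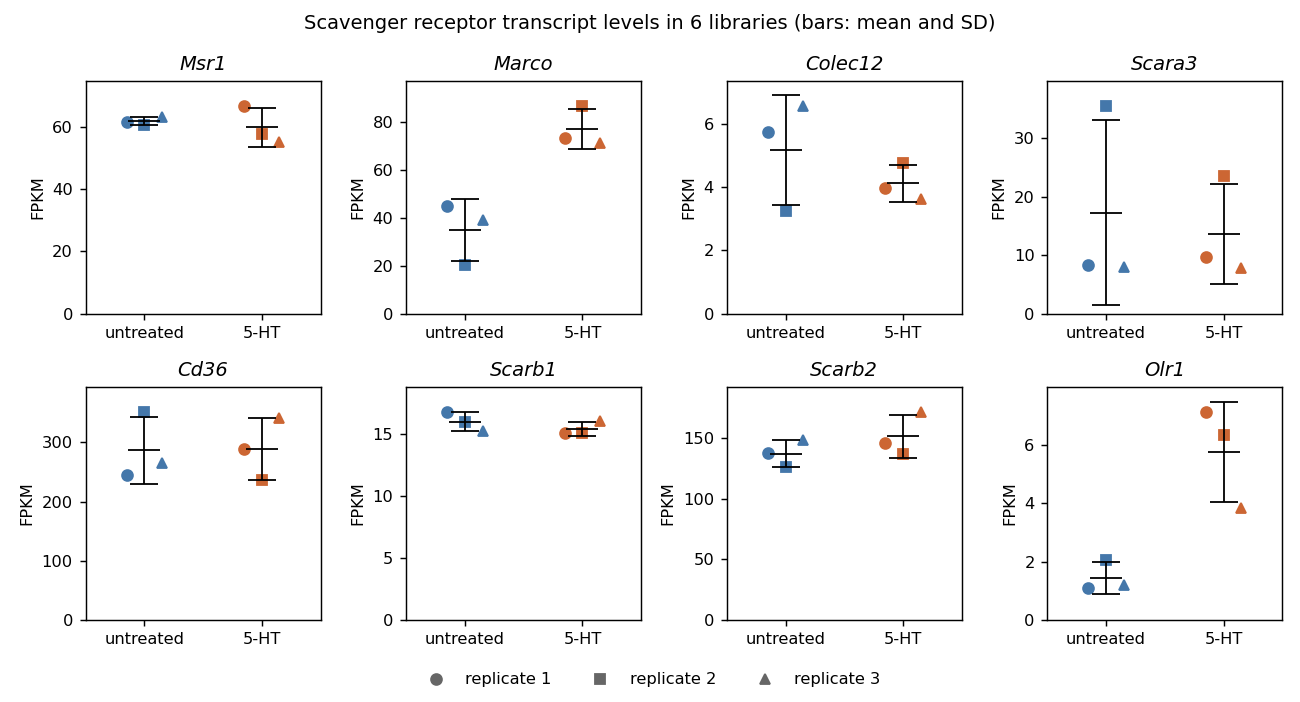
FPKM of each of the 8 genes (vertical axes, each from 0) in 3 untreated (blue) and 3 5-HT treated (orange) libraries, with the symbol shape giving the replicate number and the mean and SD as black bars. The groups separate for Marco and Olr1, while the libraries numbered 2 carry the highest Scara3 values in both groups, 35.5 and 23.4 FPKM.

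The 5′ flanks of the receptors that rose are shown because both genes went up in the same libraries. RefSeq windows were held for 4 of the 8 genes (Marco, Cd36, Scarb2 and Olr1; GRCm38.p6), and the 250 bases before the start that RefSeq gives were searched on both strands for 6 motifs. For Cd36 and Scarb2 that start lies inside the longer GENCODE span given above, so their windows are within the annotated gene. Variants of the NF-kB site were not looked for, so the search cannot exclude them in any window. A fixed sequence, without variable bases, stood for that site among the 6 motifs. These were the AP-1 motif TGANTCA, the cAMP response element TGACGTCA, the consensus NF-kB site, the PU.1 motif GAGGAAGT, the PPAR-RXR direct repeat and the TATA motif TATAAA. The only match in the 4 windows was TGANTCA in the Olr1 window, with its first base at position -60, and it overlapped no other motif. That motif was present in 6.75% of all 32851 windows of this length, against 1.55% for TGACGTCA, 0.14% for the NF-kB site, 2.44% for GAGGAAGT, 0.0335% for the PPAR-RXR repeat and 12.4% for TATAAA. The flanks, chr6:129507166-129507415 and chr1:120505025-120505274, are printed 5′ to 3′ on the minus strand, with the match in capitals.
Olr1: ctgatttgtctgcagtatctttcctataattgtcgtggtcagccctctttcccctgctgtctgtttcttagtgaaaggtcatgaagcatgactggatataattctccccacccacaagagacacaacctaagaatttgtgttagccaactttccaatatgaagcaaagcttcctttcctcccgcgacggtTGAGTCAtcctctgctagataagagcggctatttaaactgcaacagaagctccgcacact
Marco: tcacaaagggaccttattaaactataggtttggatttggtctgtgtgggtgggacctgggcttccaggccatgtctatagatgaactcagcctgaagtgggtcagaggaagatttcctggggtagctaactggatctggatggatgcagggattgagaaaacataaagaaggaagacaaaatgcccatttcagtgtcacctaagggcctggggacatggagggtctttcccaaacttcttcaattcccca
The Olr1 flank holds TGAGTCA and the Marco flank none of the 6 motifs in these letters.

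Olr1, which encodes the oxidised LDL receptor LOX-1, had the largest change of the 8 and the lowest untreated level. Untreated replicates 1 to 3 stood at 1.08, 2.06 and 1.18 FPKM, and 5-HT treated replicates 1 to 3 at 7.13, 6.33 and 3.85 FPKM. Every treated library exceeded every untreated one, and treated replicate 3 was the lowest of its group. The counts behind these values were 70, 134 and 80 against 407, 348 and 235 reads. The mean went from 1.44 ± 0.539 to 5.77 ± 1.71 FPKM (SD, n = 3 each), a 4.03-fold rise with a 95% interval of 2.43 to 6.69 (log2 2.01, SE 0.31, edgeR adjusted p = 0.0113). The change ranked 401st by p among the genes tested. The call was lost without untreated replicate 1 or 3 (adjusted p = 0.0615 and 0.0673) and by limma without a filter on low values (0.163).

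Most neutrophil markers rose in the same libraries as Olr1. Of 11 such genes 9 were tested, 6 rose by edgeR (7 by DESeq2) and none fell by either tool or by unadjusted p under 0.05, and their summed level was 144.5 to 177 in untreated and 355 to 929 FPKM in treated libraries. Ly6g, a defining marker too low to be tested, lay between 0 and 0.33 FPKM without and between 0.37 and 1.10 FPKM with treatment. Camp, also too low to be tested, went the other way, from 0.72 to 1.45 FPKM without to 0.08 to 0.66 FPKM with treatment. Ngp and Ltf had negative log2 values (-0.81 and -0.33) and did not pass (edgeR adjusted p = 0.231 and 0.649). Cxcr2, the neutrophil chemokine receptor, had a log2 change of 2.72 (edgeR adjusted p = 0.0115). Treated replicate 2 held the highest neutrophil sum, 929 FPKM, whereas Olr1 was highest in treated replicate 1. As a percent of the neutrophil sum, Olr1 was 0.610, 1.43 and 0.678 in untreated and 1.47, 0.681 and 1.09 in treated libraries, so the groups overlapped on that scale. As a percent of the Kupffer cell sum it was 0.0657, 0.175 and 0.0866 against 0.352, 0.363 and 0.182, without overlap. The part of neutrophils in the rise of Olr1 was not tested.

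Marco, the class A receptor for bacteria and inert particles on resident macrophages, was the other member that rose. In the untreated group replicates 1 to 3 had 44.9, 20.4 and 39.2 FPKM, and treated replicates 1 to 3 had 73.2, 86.6 and 71.05 FPKM. The groups did not overlap, the treated libraries were close together, and untreated replicate 2 lay well below the other untreated libraries. The mean went from 34.9 ± 12.8 to 76.9 ± 8.42 FPKM (SD, n = 3 each), 2.21-fold with a 95% interval of 1.41 to 3.45 (log2 1.14, SE 0.27, edgeR adjusted p = 0.0489). The adjusted p lay just under the threshold, and the call was lost in 10 of 19 alternative fits. Without untreated replicate 2 the rise was smaller and the call was kept (log2 0.87, adjusted p = 0.0108). Without any other library the call was lost, with adjusted p of 0.0801 and 0.134 without untreated replicates 1 and 3 and of 0.112, 0.088 and 0.0769 without treated replicates 1 to 3.

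Most Kupffer cell markers were also higher with treatment: 14 of 16 had positive log2 values and 2, Id3 (-0.16) and Folr2 (-0.03), negative ones. Of the 16, 4 rose by edgeR and 9 by DESeq2, and none fell by either or by unadjusted p under 0.05. Those that rose included the F4/80 gene Adgre1 (log2 0.70, edgeR adjusted p = 0.0238). The marker sum was lowest in untreated replicate 2, at 1179 FPKM, where Marco was lowest too. Within the treated group the order was opposite: replicate 2 had the lowest sum, 1743 FPKM, and the highest Marco level. Expressed as a percent of that sum, Marco was 2.73, 1.73 and 2.88 in untreated and 3.62, 4.97 and 3.35 in treated libraries. The groups did not overlap on this scale either, and untreated replicate 2 was still the lowest library. The part of the number of Kupffer cells in the change of Marco was not tested.

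Msr1, the class A receptor for modified lipoproteins, had nearly the same level in all libraries. It had 61.7, 60.7 and 63.3 FPKM in untreated and 66.7, 57.6 and 55.05 FPKM in treated replicates 1 to 3. The untreated values lay inside the range of the treated ones. The fold was 0.969 with a 95% interval of 0.823 to 1.14 (log2 -0.04, SE 0.10, edgeR adjusted p = 0.833). The interval leaves no room for a change of the size seen for Marco, although a smaller change could not be detected. As a percent of the Kupffer cell marker sum, Msr1 was 3.75, 5.15 and 4.64 in untreated and 3.29, 3.30 and 2.60 in treated libraries. On that scale the groups did not overlap and the treated libraries were lower, a difference that was not tested.

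Marco and Msr1 changed places in the order of levels. Marco had 0.729, 0.336 and 0.62 FPKM per FPKM of Msr1 in untreated replicates 1 to 3 and 1.10, 1.5 and 1.29 in treated replicates 1 to 3. Marco was thus below Msr1 in 3 of 3 untreated libraries and above it in 3 of 3 treated libraries. Both values come from the same library and are scaled for exonic length, so library size does not enter the ratio.

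Colec12, a collectin of vascular endothelium with both a collagen stalk and a lectin domain, was low. It had 5.75, 3.24 and 6.57 FPKM in untreated and 3.98, 4.77 and 3.62 FPKM in treated replicates 1 to 3. Untreated replicate 2 was the lowest of all 6 libraries and the other untreated libraries the highest. The change of log2 -0.33 (SE 0.26, fold 0.795, 95% interval 0.524 to 1.20) did not pass (edgeR adjusted p = 0.489). With both libraries numbered 2 left out, an alternative chosen after the values were seen, Colec12 fell (log2 -0.68, edgeR adjusted p = 0.0126). Olr1 and Colec12 also changed places: Olr1 was the lowest of the 8 in all 3 untreated libraries, and Colec12 in all 3 treated libraries.

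Scara3, a class A member of intracellular membranes that in human cells is induced by oxidative stress, split the libraries by number rather than by group. Replicates 1 to 3 read 8.32, 35.5 and 8.03 FPKM when untreated and 9.64, 23.4 and 7.82 FPKM when treated. The libraries numbered 2 were the highest in both groups, and the other 4 lay between 7.82 and 9.64 FPKM. The log2 change was -0.32 (SE 0.65, fold 0.799, 95% interval 0.28 to 2.27, edgeR adjusted p = 0.811), an interval too wide to tell a fall from a rise. Its sign changed without untreated replicate 2 (log2 0.73), with sample quality weights (0.14) and without both libraries numbered 2 (0.11), and none of these passed.

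Clu, Anxa13 and Spp1 followed Scara3 most closely of 7494 candidate genes, with Pearson's r of 0.995, 0.994 and 0.994 in library-scaled log2 counts (CPM) over the 6 libraries. Spp1, the osteopontin gene, had 196.8, 924 and 221 in untreated and 278, 614 and 223 FPKM in treated libraries. Clu, which encodes clusterin, had 512 and 385 FPKM in the libraries numbered 2 and 122 to 165 FPKM in the others. Spp1 is abundant in bile duct epithelium, so 9 other genes of that epithelium were read, a list chosen after these values were seen. Their summed level was 89.7 and 80.6 FPKM in the untreated and treated libraries numbered 2, against 28.3 to 47.8 FPKM in the other 4. Epcam, an epithelial adhesion gene, had 29.7 and 22.8 FPKM in the libraries numbered 2 and 6.10 to 13.6 FPKM elsewhere. Not every gene of the list separated as clearly. Krt19, a keratin gene, had 10.9, 13.3 and 12.4 FPKM in untreated and 7.86, 20.03 and 8.45 FPKM in treated replicates 1 to 3. Tspan8 had 17.04 FPKM in untreated replicate 2 and 12.98 FPKM in untreated replicate 3. None of the 9 was at 0 in any library, and none passed between the groups by edgeR, DESeq2 or unadjusted p under 0.05 (median log2 -0.08). Scara3 was 28.9%, 39.5% and 16.8% of that sum in untreated and 28.04%, 29.05% and 27.6% in treated replicates 1 to 3. The part of bile duct epithelium in the level of Scara3 was not tested.

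**Figure D2:**
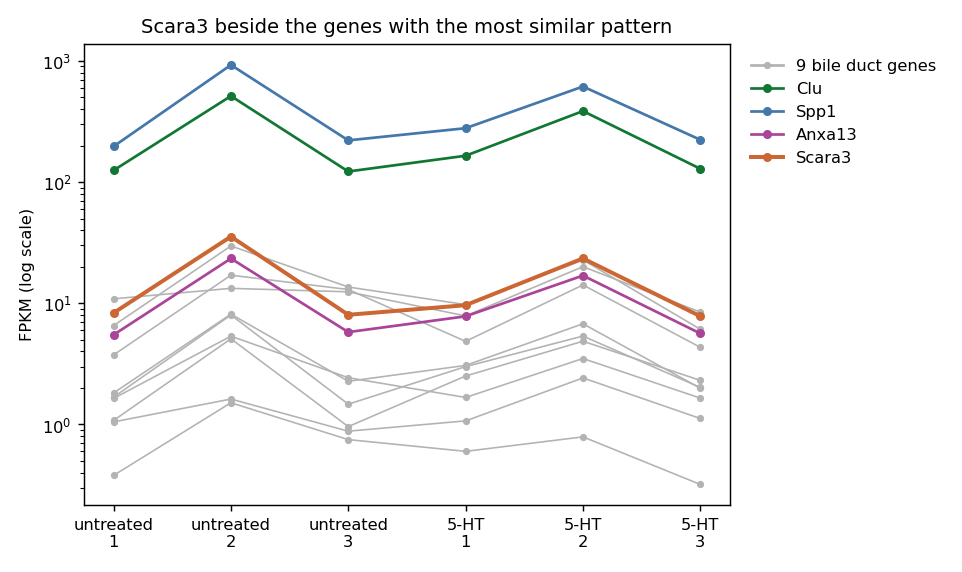
FPKM (log scale, vertical) of Scara3, of the 3 genes with the most similar pattern and of 9 bile duct genes (grey) in each of the 6 libraries (horizontal; lines join the values of a gene). The libraries numbered 2 are the highest for Scara3, Clu, Anxa13 and Spp1 in both groups.

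Cd36, the class B receptor for long-chain fatty acids and oxidised LDL, was the most abundant member in all 6 libraries. Untreated replicates 1 to 3 had 244, 351 and 264.5 FPKM and treated replicates 1 to 3 had 289, 237 and 342 FPKM. The highest untreated library was replicate 2 and the highest treated library replicate 3, and the groups covered almost the same range. The fold was 1.02 with a 95% interval of 0.756 to 1.37 (log2 0.02, SE 0.18, edgeR adjusted p = 0.959). Leaving out single libraries moved the log2 value between -0.13 and 0.18, without a call. Against the endothelial marker sum, Cd36 was 4.62% to 6.80% in untreated and 6.10% to 6.42% in treated libraries. Platelets also carry CD36, and their markers were low: the 7 genes summed to 7.29 to 28.2 in untreated and 4.65 to 8.48 FPKM in treated libraries, and Gp1bb was listed at 0 in all 6. Most of that sum was Pf4, at 26.6, 5.55 and 20.97 FPKM in untreated and 3.82, 6.13 and 2.68 FPKM in treated replicates 1 to 3. Its log2 change of -2.08 did not pass (edgeR adjusted p = 0.0737, unadjusted p = 0.00807).

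Scarb1 encodes SR-BI, the HDL receptor through which cholesteryl esters are taken up. It was the steadiest of the 8, at 16.7, 15.9 and 15.2 FPKM in untreated and 15.02, 15.07 and 16.04 FPKM in treated replicates 1 to 3. The highest library was 1.11 times the lowest, and the groups overlapped. Its fold of 0.969 had a 95% interval of 0.846 to 1.11 (log2 -0.05, SE 0.08, edgeR adjusted p = 0.795).

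Scarb2 encodes LIMP-2, an abundant membrane protein of lysosomes. It had 137.6, 126.1 and 148.4 FPKM in untreated and 146.5, 137.3 and 172 FPKM in treated replicates 1 to 3. Treated replicate 3 was the highest library, and the other values of both groups were mixed. The change was log2 0.15 (SE 0.13, fold 1.11, 95% interval 0.898 to 1.37, edgeR adjusted p = 0.545).

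**Figure D3:**
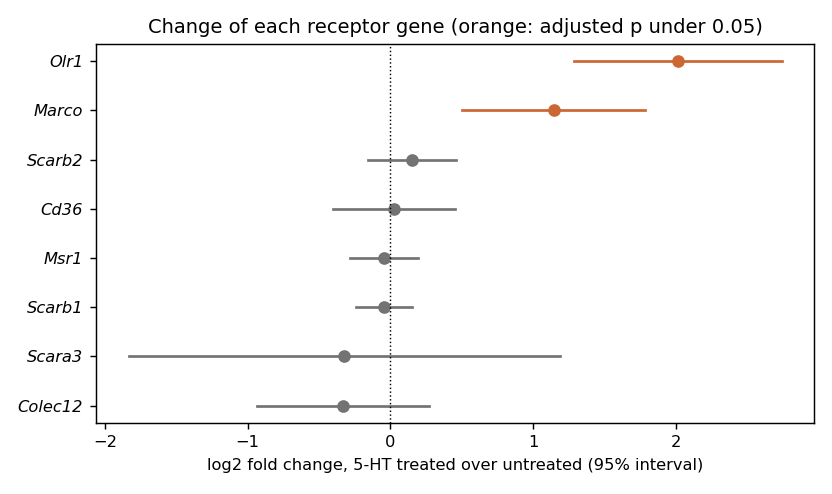
Log2 fold change of each of the 8 genes, 5-HT treated over untreated, with its 95% interval from the edgeR fit (horizontal axis). The intervals of Olr1 (1.28 to 2.74) and Marco (0.50 to 1.78) lie above 0, and those of the other 6 include 0.

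Cd36 and Scarb2 held most of the receptor transcripts. Per length, the members together summed to 520 to 615 in untreated and 568 to 671 FPKM in treated libraries. Cd36 and Scarb2 together made up 73.4%, 77.6% and 75.6% of the sum in untreated and 71.3%, 65.9% and 76.5% in treated replicates 1 to 3. Marco's share was 6.38% ± 2.75 in untreated and 12.6% ± 2.40 in treated libraries (SD, n = 3 each). Olr1's share was 0.253% ± 0.0712 and 0.952% ± 0.328 in the same order (SD, n = 3 each). Cd36 was first and Scarb2 second in every library. Msr1 and Marco filled the next places except in untreated replicate 2, where Scara3 stood above Marco. Scarb1 and Scara3 could not be ordered beyond their spread: Scarb1 was higher in the 4 libraries numbered 1 and 3 and Scara3 in the others.

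**Figure D4:**
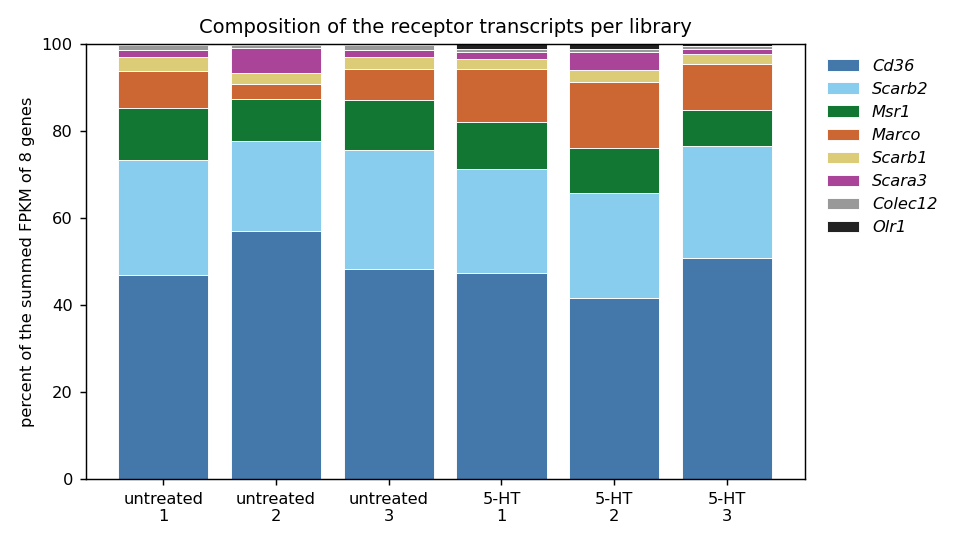
Share of each gene in the summed FPKM of the 8 genes (percent, vertical) in the 6 libraries. Marco takes 3.32% to 8.63% in the untreated and 10.6% to 15.2% in the 5-HT treated libraries, and Cd36 is the largest part throughout.

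Outside Scara3, the genes with the most similar pattern over the 6 libraries are given as a description, since with so few libraries many genes reach a high r. Pearson's r takes no account of the size of a change. For Olr1 they were Sgpl1, Pawr and Nfkb1 (r = 0.994, 0.992 and 0.991), the last encoding the NF-kB subunit p105/p50. Sgpl1 and Pawr rose (log2 0.66 and 1.34, edgeR adjusted p = 0.0157 and 0.00418), and Nfkb1 did not pass (log2 0.37, edgeR adjusted p = 0.0517). Those of Marco were Slu7, Tgds and Tm2d1 (r = 0.991, 0.991 and 0.988). Their log2 changes of 0.14, 0.18 and 0.25 did not pass (edgeR adjusted p = 0.338, 0.343 and 0.199). Those of Cd36 were Frmd4a, St3gal5 and Slfn5 (r = 0.989, 0.982 and 0.976), and those of Scarb2 were Tsg101, Pnrc2 and Dcaf12 (r = 0.995, 0.992 and 0.982). Msr1 was nearest to Gatc, Kif5b and Rnf20 (r = 0.992, 0.956 and 0.950), Scarb1 to Abhd16a, Cdk4 and Il15 (r = 0.981, 0.977 and 0.975), and Colec12 to Mrps18c, Idh3a and Ppa1 (r = 0.991, 0.985 and 0.983). Among the members themselves the highest r was that of Marco with Olr1, 0.68, and the lowest that of Cd36 with Colec12, -0.77.

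Scavenger receptors of other classes changed in both directions. Among the 14 with enough counts, 2 rose and 2 fell by edgeR, the other 10 failing the test, with a median log2 change of -0.05. Of all tested genes, 4.55% were higher and 3.19% lower. DESeq2 called 3 of the list higher and 4 lower, and 6 were higher and 4 lower at an unadjusted edgeR p under 0.05. The groups did not overlap in FPKM for 10 of the 14, against 29.6% of all tested genes. These shares describe the list and test nothing about it. Cd163, the haemoglobin-haptoglobin receptor of class I, went from 25.7 ± 2.66 to 45.7 ± 6.22 FPKM (SD, n = 3 each; log2 0.84, edgeR adjusted p = 0.0131). Cd14, the endotoxin co-receptor, rose by log2 0.70 with an edgeR adjusted p of 0.0494, and 11 of 19 alternatives lost the call. Lgals3bp, a secreted protein with a scavenger receptor cysteine-rich domain, fell with log2 -0.60 (edgeR adjusted p = 0.0362), and Scarf2, of class F, fell with log2 -0.97 (edgeR adjusted p = 0.0396). Their calls were lost in 8 and 7 of 19 alternatives.

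Several genes that work with CD36 in signalling rose. Of 17 tested, 6 rose and none fell by edgeR, with a median log2 change of 0.31, against 4.55% of all tested genes higher and 3.19% lower. DESeq2 called 9 higher and 1 lower, and 10 were higher and 1 lower at an unadjusted edgeR p under 0.05. The gene lower by unadjusted p was Thbs1, which went from 82.7 ± 18.5 to 42.9 ± 17.4 FPKM without overlap (SD, n = 3 each). Its log2 change of -0.95 did not pass (edgeR adjusted p = 0.113). Tlr6, which forms a receptor with TLR4 and CD36 for oxidised LDL, went from 1.40 ± 0.336 to 3.07 ± 0.521 FPKM (SD, n = 3 each; log2 1.14, edgeR adjusted p = 0.0241). Tlr4 and Tlr2, receptors for endotoxin and bacterial lipoproteins, rose by log2 1.10 and 0.80 (edgeR adjusted p = 0.00187 and 0.00298), and their calls held in all 19 alternatives. Fcer1g, the signalling adaptor gene, Dab2, an endocytic adaptor gene, and Itgb1, the integrin beta-1 gene, rose with log2 0.51, 0.63 and 0.46 (edgeR adjusted p = 0.0317, 0.0357 and 0.0435). Those calls were lost in 7, 7 and 10 of 19 alternatives, and that of Tlr6 in 5. Dab2 and Itgb1 were named to complete the 6. Cd36 itself, at log2 0.02, did not pass beside them. The list was chosen with earlier results of these data known, so its shares describe it and test nothing about it. Such rises were not particular to it: 6 of 9 tested neutrophil markers, 4 of 16 Kupffer cell markers and 1 of 16 monocyte markers rose by edgeR.

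Cholesterol transport genes downstream of lipoprotein uptake were mixed. Of 14 tested, 2 rose and 1 fell by edgeR (median log2 0.13), against 4.55% of all tested genes higher and 3.19% lower. DESeq2 called 2 higher and 2 lower, and 3 were higher and 2 lower at an unadjusted edgeR p under 0.05. The cholesterol exporter gene Abca1 had 28.5, 21.3 and 29.1 FPKM in untreated and 74.96, 57.9 and 57.06 FPKM in treated replicates 1 to 3, groups that did not overlap (log2 1.27, edgeR adjusted p = 0.00674). Abcg1, which exports cholesterol to HDL, rose by log2 0.70 with an edgeR adjusted p of 0.00553, and no alternative of the 19 lost the call. Mylip, which encodes the ligase that degrades the LDL receptor, fell with log2 -0.83 (edgeR adjusted p = 0.0227). Of 19 genes of fatty acid handling and PPAR-gamma targets, none rose and 2 fell by edgeR (median log2 -0.02), as by DESeq2, and 4 were higher and 6 lower at an unadjusted edgeR p under 0.05. The genes that fell were Rxra, the partner of PPAR and LXR receptors (log2 -0.48, edgeR adjusted p = 0.0222), and Lipe, a lipase gene (log2 -0.61, edgeR adjusted p = 0.032), with calls lost in 6 and 11 of 19 alternatives. Pparg, which controls Cd36 in macrophages, had 4.04 ± 0.701 in untreated and 5.79 ± 0.362 FPKM in treated libraries (SD, n = 3 each; log2 0.53, edgeR adjusted p = 0.0788), and was named after its value was seen.

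Among the lysosomal partners of SCARB2, 1 of 12 rose and none fell by edgeR, as by DESeq2, and 1 was lower at an unadjusted edgeR p under 0.05 (median log2 0.10). The gene that rose was the protease gene Ctsd (log2 0.41, edgeR adjusted p = 0.0406), lost in 11 of 19 alternatives. Of 12 collectins, ficolins and related complement genes, 10 were tested and 1 rose, Cd93, a C-type lectin-like receptor gene (log2 0.93, edgeR adjusted p = 0.00685). The median log2 change of the 10 was 0.26, and DESeq2 called 1 higher and 1 lower.

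The genes read as neighbours of Olr1 were mostly lectin genes of the same cluster, with Gabarapl1, which encodes no lectin, among them. Of 12 tested, 1 rose by edgeR and 2 by DESeq2, and none fell by either or by unadjusted p under 0.05 (median log2 -0.07). Clec12a, an inhibitory myeloid lectin gene, went from 7.29 ± 1.36 to 14.4 ± 1.71 FPKM (SD, n = 3 each; log2 0.99, edgeR adjusted p = 0.00856). Clec7a, the gene of the beta-glucan receptor dectin-1, had log2 0.27 (edgeR adjusted p = 0.304) and was named after its value was seen. The changes of Olr1 and of its neighbours were not compared by a test.

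**Figure D5:**
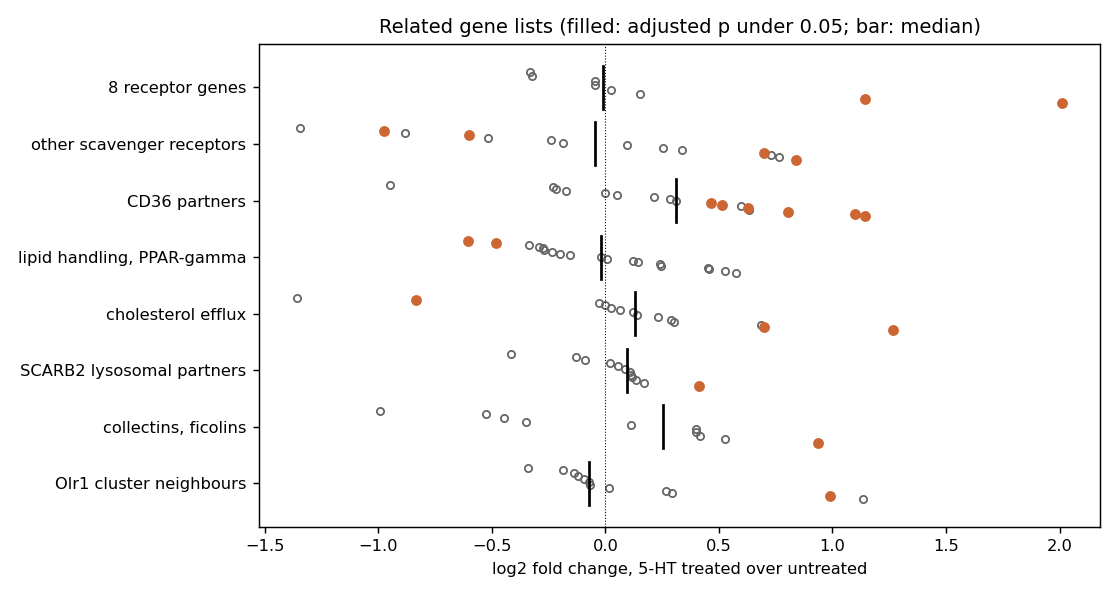
Log2 fold change, 5-HT treated over untreated (horizontal), of every tested gene of the 8 receptors and 7 related lists, with filled orange points for genes past the edgeR threshold and a bar at the median. The medians lie between -0.07 and 0.31, and Olr1 has the highest value shown, log2 2.01.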

How the data were processed

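The deposited table holds raw read counts per gene and FPKM for 6 libraries, per the file headers. The authors' FPKM was checked: 100% of values of at least 1 lay within 0.5% of count per exonic length and library total, or within rounding. HISAT2 2.2.1, featureCounts 2.0.1 and mm10 appear, without roles, among the submitters' processing notes; the sources used here do not give strand use. RNA was extracted with TRIzol and sequenced on a NovaSeq system, per the labels' protocols. Deposited gene positions differed from GENCODE M21 for 7 of the 8 members, so positions were taken from M21 by identifier.

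Counts were tested with edgeR 4.0.16 in R 4.3.3 (filterByExpr, TMM, quasi-likelihood fit, two-sided), with Benjamini-Hochberg adjustment over 16641 genes and a threshold of 0.05; SE is the log2 change over the square root of F. Intervals are 95%. DESeq2 1.42.0 and limma 3.58.1 on log2(FPKM + 1) and other pseudocounts were alternatives. The members and lists were chosen with earlier results of these data known. Named genes were the members, up to 4 called genes of smallest p per list, and the 2 most abundant markers per cell type. The 3 genes of highest r with each member, among those with a mean of at least 5 FPKM, were named too. Others were named after their values were seen: defining markers, Dab2, Itgb1, Epcam, Pparg, Clec7a, Id3, Folr2, Camp, Ngp, Ltf and Thbs1. Ccr2, Ms4a4c, Fn1, Ccr7, Krt19, Tspan8 and Gabarapl1 were likewise named after their values were seen. Replicates differed by far more than counting noise and were kept apart.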

Additional observations from a re-analysis of the deposited data

How the results depend on the processing

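Over 19 alternatives, 18 of them planned, the 152 member values kept their side of the threshold in 138 cases, lost a call in 13 and gained one in 1, and no called value changed sign. The number of members called higher, 2, became 1 by limma on log2(FPKM + 1), log2(FPKM + 0.1) and log2(FPKM + 5), 0 by limma without a filter, and 0 to 2 when 1 library was left out. None was called lower, except 1 (Colec12) without both libraries numbered 2, chosen after seeing the data, where all genes called lower rose from 531 to 1038. DESeq2 called 1150 genes higher and 955 lower against 757 and 531, limma voom with quality weights 1362 and 1253, and limma without a filter 137 and 86. Leaving out 1 library gave 218 to 672 higher and 111 to 675 lower; the cause was not tested. With the replicate number as a block, 1 member was called higher (Olr1; Marco had an adjusted p of 0.0753), beside 542 genes higher and 354 lower. Whether the numbers pair the libraries is not known. Deviations of same-numbered libraries from their group means correlated at 0.075, 0.073 and -0.011, and not every library correlated best with its own number. Untreated replicate 2 did correlate best with treated replicate 2. Such low values over all tested genes cannot exclude a shared origin of same-numbered libraries. Counts of 70 to 134 reads limit the untreated level of Olr1.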

Other observations

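Markers of the other cell types that such an isolate can hold were read over whole lists; no member's change was tested against them. Sinusoidal endothelial genes included 1 that rose and 5 that fell of 14 tested (median log2 -0.37): Lyve1, a hyaluronan receptor gene, rose by log2 1.79, while Ehd3, Kdr and Oit3 had log2 changes of -1.71, -0.78 and -0.74. All 12 stellate cell and fibroblast genes had negative log2 values (median -0.97), of which only Reln passed the edgeR test; they summed to 129 to 187 in untreated and 53.5 to 137 FPKM in treated libraries.

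Monocyte genes summed to 1190 to 1438 in untreated and 1136 to 1928 FPKM in treated libraries, and 1 of 16, Treml4, rose (log2 1.67). Lyz2 alone made up most of that sum, at 851 to 1372 FPKM. Hepatocyte genes, led by Alb and Ass1, summed to 737.5 to 1181 FPKM and 656 to 1823 FPKM; none of 11 passed by edgeR, 2 fell by DESeq2, and 2 were lower at an unadjusted edgeR p under 0.05. B and plasma cell genes, led by Igkc and Ighm, summed to 632 to 829 FPKM and 964 to 4332 FPKM; none of 8 passed by edgeR, 3 rose by DESeq2, and 4 were higher at an unadjusted edgeR p under 0.05. Dendritic cell genes summed to 80.5 to 104 FPKM and 66.5 to 79.4 FPKM, and none of 8 passed by edgeR, DESeq2 or unadjusted p under 0.05.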
